A study of Mus musculus with 6 samples.

Results

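The genes of active DNA demethylation, the TET dioxygenases *Tet1*, *Tet2* and *Tet3*, the DNA glycosylases *Tdg* and *Mbd4*, and the GADD45 genes *Gadd45a*, *Gadd45b* and *Gadd45g*, were examined in undifferentiated mouse ESCs (mESCs) with and without *Alkbh1*. The 8 genes were listed by name, and their probe sets were found by gene identifier, symbol or older alias in a table of 33142 probe sets, of which 28216 were named and represented 15363 genes. Of the 8 genes, 7 had at least 1 probe set and together they had 17. *Tet3* had none under these names and is not described further at the level of expression. Another comparison of the same arrays gives 45101 in its header, so the 33142 are only part of those measured. Whether the rest hold *Tet3* was not seen. WT and *Alkbh1-/-* mESCs of C57BL/6 background were each measured on 3 arrays at passage 8 and day 0, without treatment, in medium with leukemia inhibitory factor. Both lines came from littermate blastocysts of heterozygous parents and grew on irradiated mouse embryonic fibroblasts. The labels give all arrays of a genotype a single cell line code, so a difference between the genotypes and a difference between 2 cell lines cannot be told apart.

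TET enzymes are iron- and 2-oxoglutarate-dependent dioxygenases, a class to which ALKBH1 also belongs, and they oxidize the methyl group of methylcytosine to hydroxymethyl-, formyl- and carboxylcytosine. TDG excises the last 2 of these bases, and base excision repair then restores an unmodified cytosine. MBD4 binds methylated CpG and removes thymine or uracil that arises there by deamination. GADD45 proteins are small stress-induced proteins that bind cell cycle and mitogen-activated kinases and have been linked to demethylation through the repair machinery. TET1 and TET2 are known as the main TET enzymes of mESCs.

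DNA methylation acts at CpG dinucleotides, and the promoter windows of the 2 members with a measured difference between the genotypes are therefore shown with each CpG in capitals. They are taken from RefSeq on build GRCm38.p6 and run 5′ to 3′ on the strand of the gene. Each covers 250 bases before a single annotated transcription start of its gene and 50 after it. The *Tet2* window lies at chr3:133544341-133544640 on the minus strand and the *Gadd45g* window at chr13:51846425-51846724 on the plus strand. The *Tet2* window is wholly inside the gene, whose span reaches 133545136, so its start is not the outermost one. The same holds for *Tet3*, with a window at chr6:83441629-83441928 on the minus strand in a gene reaching 83457208. Sequence at the outermost starts of these genes was not examined.
Tet2: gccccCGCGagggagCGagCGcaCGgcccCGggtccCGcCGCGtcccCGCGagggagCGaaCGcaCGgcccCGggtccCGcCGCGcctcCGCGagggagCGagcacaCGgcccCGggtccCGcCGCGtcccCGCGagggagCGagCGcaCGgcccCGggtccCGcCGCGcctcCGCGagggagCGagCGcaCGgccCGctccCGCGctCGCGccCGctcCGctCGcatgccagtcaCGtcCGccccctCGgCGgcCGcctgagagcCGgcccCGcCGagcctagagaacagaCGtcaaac
Gadd45g: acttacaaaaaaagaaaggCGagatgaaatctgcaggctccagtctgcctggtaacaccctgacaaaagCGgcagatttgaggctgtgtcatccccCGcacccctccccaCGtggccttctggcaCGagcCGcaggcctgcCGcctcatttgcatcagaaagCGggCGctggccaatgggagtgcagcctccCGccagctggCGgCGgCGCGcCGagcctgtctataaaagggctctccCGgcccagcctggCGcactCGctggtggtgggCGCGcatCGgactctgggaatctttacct

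The *Tet2* window is made almost wholly of GC-rich sequence and holds 57 CpG, a count above that of 99.8% of the 32841 windows of this length. Its GC content is 81.3%, against a median of 52.7% over all windows. The upstream part repeats itself: shifted by 42 bases, the window is identical to itself at 67.8% of 258 positions, whereas in the other members the best shift gives 33.1% to 37.7%. The *Gadd45g* window holds 21 CpG, above 75.2% of all windows, and has a GC content of 62.3%. CpG counts of the other members are 17 for *Tet1*, 22 for *Tet3*, 26 for *Tdg*, 14 for *Gadd45a*, 24 for *Gadd45b* and 25 for *Mbd4*, so that all 8 lie above the median of 7. Relative to the number that the C and G content of a window would give, CpG ran from 0.508 in *Gadd45a* and 0.576 in *Tet3* to 0.988 in *Tdg* and 1.17 in *Tet2*, against a median of 0.384.

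**Figure D1:**
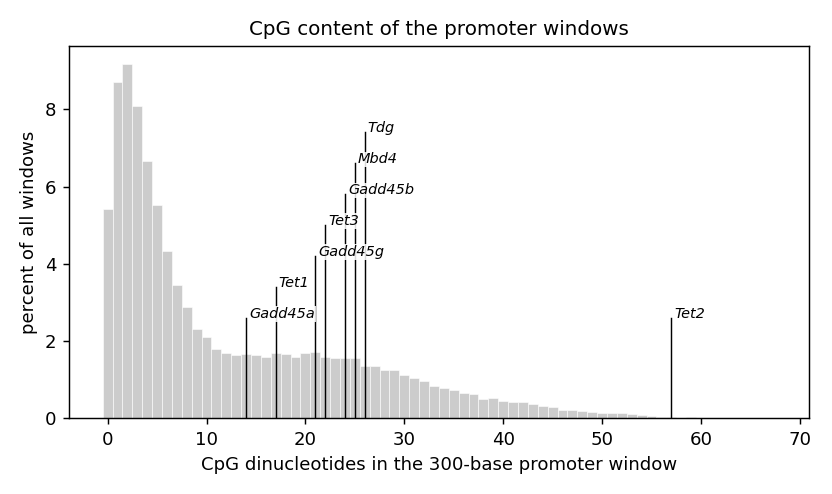
CpG dinucleotides (x axis) in promoter windows of 300 bases, with grey bars for the percent of all 32841 windows at each count (y axis) and black lines for the members; line heights only separate the names. The members lie between 14 and 26 CpG, apart from *Tet2* at 57.

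Plain motifs were searched on both strands of the same windows. The TATA box, spelled TATAAA, is in 2 of the 8 windows, those of *Gadd45g* and *Gadd45b*, and in 13.6% of all windows. In *Gadd45g* it begins at position -27 from the start and in *Gadd45b* at -46. The CCAAT box is in 6 of the 8 windows, all but those of *Tet1* and *Tet2*, and in 37.4% of all windows. The GC box, spelled GGGCGG, is in 6 windows, all but those of *Tdg* and *Gadd45g*, and in 35.7% of all windows. These matches describe letters in a window and say nothing of a factor bound there.

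The level of each member was first examined over both genotypes together. The level is the mean log2 value over all 6 arrays, as deposited. Over the 33142 probe sets, which are meant by all probe sets throughout, it lay between 3.22 and 14.67 (median 6.31). The brightness of a probe set depends on its oligonucleotides as well as on its transcript, so levels were set against the spread of all probe sets and not ranked from gene to gene. All 7 measured members had a brightest probe set above the median, and 5 of them, *Tet1*, *Tet2*, *Tdg*, *Gadd45a* and *Gadd45b*, were above the upper quartile of 8.38. Setting a gene's brightest probe set against all single probe sets favours the gene. Among the brightest probe sets of all named genes, *Gadd45b* was above 72.1%, short of the upper quartile.

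*Tet1* (chromosome 10, 62804570 to 62887469 on GRCm38.p6) had a mean log2 value of 11.50 at 1429448_s_at, above 96.3% of all probe sets. A pair of further probe sets carry the older name BB001228, which RefSeq gives as an alias of *Tet1*, and they disagreed, 1419896_at at 10.11 and 1419897_at at 5.17. The range of 6.33 log2 units over the probe sets of *Tet1* was the widest among the members. *Tet2* (chromosome 3, 133463677 to 133545136) had a mean log2 value of 9.97 at 1455300_at and of 9.15 at 1438781_at, above 89.4% and 82.9% of all probe sets. Both *Tet2* probe sets were thus well within the upper part of the scale.

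Of the glycosylases, *Tdg* (chromosome 10, 82629814 to 82650799) had mean log2 values of 10.42 at 1435715_x_at, 9.64 at 1416790_a_at and 9.55 at 1448462_at, and its 3 probe sets lay within 0.87 of each other. *Mbd4* (chromosome 6, 115840697 to 115853400) had a mean log2 value of 7.68 at 1449490_at, above 67.2% of all probe sets. Its other probe sets, 1441079_at at 6.46 and 1457708_at at 6.37, were near the median of all probe sets.

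Of the GADD45 genes, *Gadd45a* (chromosome 6, 67035096 to 67037407) had a single probe set, 1449519_at, with a mean log2 value of 10.67, above 93.2% of all probe sets. *Gadd45b* (chromosome 10, 80930091 to 80932204) had mean log2 values of 8.89 at 1450971_at, 8.02 at 1449773_s_at and 5.46 at 1420197_at. *Gadd45g* (chromosome 13, 51846675 to 51848475) had mean log2 values of 7.69 at 1453851_a_at, above 67.2% of all probe sets, and 5.44 at 1455582_at. For both *Gadd45b* and *Gadd45g*, the dimmest probe set was below the median of all probe sets while the brightest was above it.

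**Figure D2:**
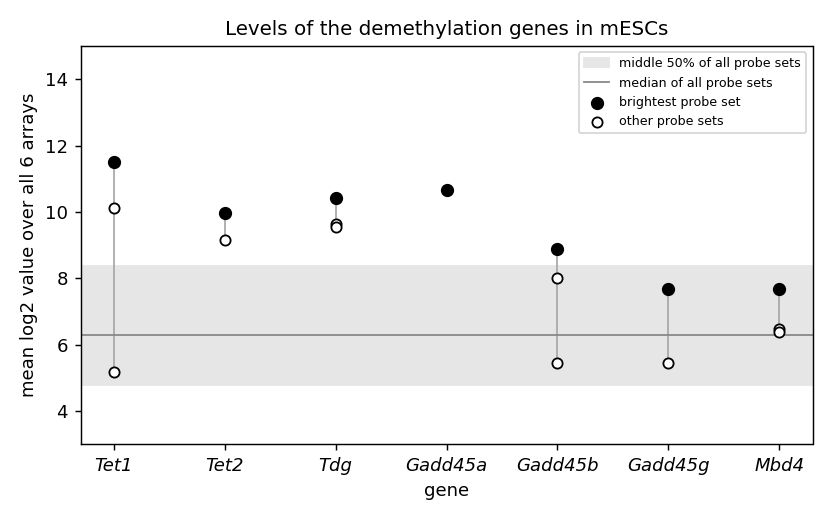
Mean log2 value over all 6 arrays (y axis) of each probe set of the 7 measured members (x axis), filled circles for the brightest probe set of a gene and open circles for the others, with the median and the middle 50% of all probe sets in grey. The brightest probe sets run from 7.68 to 11.50, and the probe sets of *Tet1*, *Gadd45b* and *Gadd45g* spread most.

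Next, the genotypes were compared through the mean of each genotype, which asks how loss of *Alkbh1* relates to transcript levels in undifferentiated cells. The authors' geometric mean intensities per genotype came from a class comparison that, by its header, lists probe sets with a nominal p under 0.05. Each mean stands for 3 arrays and no array was analysed on its own, so these differences have no error and no test. Genotype means were found for 3 of the 17 member probe sets, which belong to *Tet2* and *Gadd45g*, and for 12.9% of all probe sets. The other 5 measured members, *Tet1*, *Tdg*, *Mbd4*, *Gadd45a* and *Gadd45b*, had no genotype means, which does not show that they were alike in both genotypes.

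The targeted gene was looked at first. *Alkbh1* had a geometric mean intensity of 761 in WT and 25.7 in *Alkbh1-/-* mESCs at 1434660_at, a log2 difference of -4.89, and of 120 and 34.6 at 1438681_at, a log2 difference of -1.79. Both probe sets were lower in the cells labelled *Alkbh1-/-*. The cells were also checked against their labelled type: all 10 markers of mESCs had a probe set, with brightest mean log2 values from 10.05 to 14.49, among them *Pou5f1* at 12.64 and *Nanog* at 12.46.

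*Tet2* was higher in *Alkbh1-/-* mESCs and *Gadd45g* was lower, each by close to a doubling or a halving of its mean. At 1455300_at, the geometric mean intensity of *Tet2* was 726 in WT and 1387 in *Alkbh1-/-* mESCs, a 1.91-fold higher mean and a log2 difference of 0.93. At 1438781_at, the intensity of *Tet2* was 392 in WT and 822 in *Alkbh1-/-* mESCs, a 2.10-fold higher mean and a log2 difference of 1.07. The probe sets of *Tet2* therefore gave the same direction. At 1453851_a_at, the geometric mean intensity of *Gadd45g* was 299 in WT and 142 in *Alkbh1-/-* mESCs, a 2.10-fold lower mean and a log2 difference of -1.07. The dimmer probe set of *Gadd45g* had no genotype means. These means were joined to probe sets by their mean level, under the identifiers of the larger table. Those identifiers were taken as the right ones because *Alkbh1* and the Y-linked genes gave 1 direction each under them, so the differences of these genes are no independent check, and the direction of *Tet2* rests on this choice. By the identifiers printed in the class comparison, *Tet2* at 1455300_at would have a log2 difference of -0.63 and *Gadd45g* one of -0.70, while the probe sets of *Alkbh1* would oppose each other at -1.22 and 0.60.

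Both members with genotype means were over 1.5-fold apart, and so were 63.2% of the 4265 probe sets with such means, 32.9% of the 4265 higher and 30.3% lower in *Alkbh1-/-* mESCs. Among the 3328 on autosomes, where both genes lie, 25.4% were over 1.5-fold higher and 35.0% lower. The list itself holds no small differences: its smallest was 1.29-fold, so a difference over 1.5-fold within it does not set *Tet2* or *Gadd45g* apart. Among the 2198 probe sets that were higher in *Alkbh1-/-* mESCs, 25.1% had a larger difference than *Tet2* at 1455300_at and 18.0% a larger one than *Tet2* at 1438781_at. Among the 2067 that were lower, 13.3% had a larger difference than *Gadd45g*. At a threshold of 2-fold, only *Gadd45g* was past it at the brightest probe set, and 18.7% of the 4265 probe sets were.

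**Figure D3:**
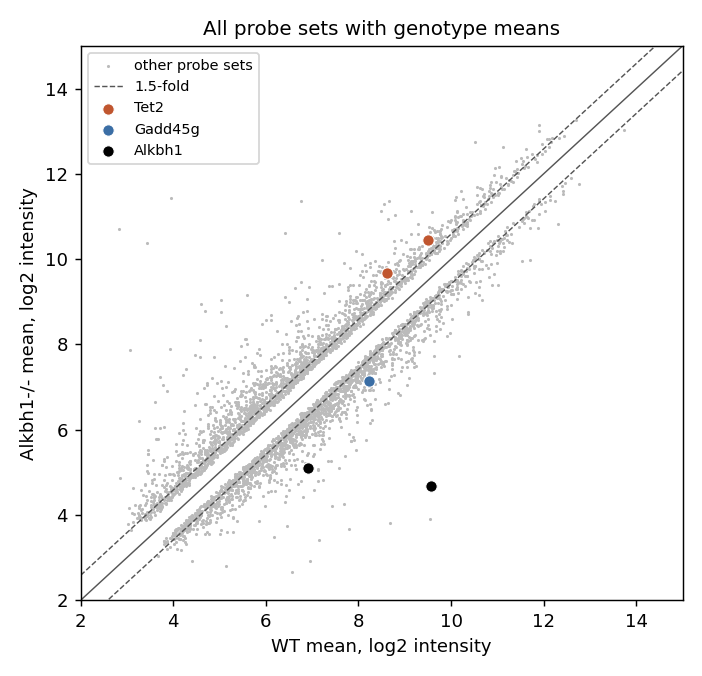
Mean of 3 WT arrays (x axis) against the mean of 3 *Alkbh1-/-* arrays (y axis), both as log2 intensity, for the 4265 probe sets with genotype means; the solid line marks equal means and dashed lines a 1.5-fold difference. No probe set lies on the line of equal means, since the list starts at 1.29-fold, and *Tet2* lies above and *Gadd45g* below the dashed lines.

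Several properties of the cultures moved with the genotype and are given beside these differences. Markers of fibroblasts, which the feeder layer would contribute, had genotype means for 4 of 11 genes at the brightest probe set, and all 4, *Col1a1*, *Col3a1*, *Tagln* and *Thy1*, were lower in *Alkbh1-/-* mESCs, by -0.52 to -1.11 on the log2 scale. Their summed geometric mean intensity was 4704 in WT and 2379 in *Alkbh1-/-* mESCs. The list holds only probe sets that differed, so the size of this gap is no measure of feeder RNA. The brightest markers, *Fn1*, *Col1a2* and *Acta2*, are not in the sum, as their brightest probe sets had no genotype means. A dimmer probe set of *Col1a2* had a log2 difference of -1.06. Over all probe sets, 12.9% had genotype means. All 11 markers had a probe set, with mean log2 values over both genotypes from 12.06 for *Fn1* down to 6.21 for *Lum*. The value of *Lum* is below the median of all probe sets. No background level was at hand, so presence of the dimmer markers is not shown. In bulk RNA, fewer cells of a type and less RNA per cell cannot be told apart, and the part of feeder RNA in the *Gadd45g* difference was not tested. The 4 Y-linked genes *Eif2s3y*, *Ddx3y*, *Kdm5d* and *Uty* were all lower in *Alkbh1-/-* mESCs, by -2.69 to -5.65 on the log2 scale, and *Xist* had no genotype means. Their brightest probe sets had log2 means of 6.18 to 9.55 in WT and 2.91 to 3.90 in *Alkbh1-/-* mESCs, at the bottom of the scale. A difference in sex chromosomes between the 2 lines cannot be told apart from the genotype, and its part in the differences was not tested. Of 504 X-linked probe sets with genotype means, 78.0% were over 1.5-fold higher and 4.2% lower in *Alkbh1-/-* mESCs. Of 3328 on autosomes, 25.4% were higher and 35.0% lower. *Tet2* and *Gadd45g* are autosomal.

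Markers of mESCs differed between the genotypes too. Of the 10 markers, 5 had genotype means at the brightest probe set, 4 of them higher and 1 lower in *Alkbh1-/-* mESCs. Over all probe sets, 12.9% had genotype means, and 2198 of these 4265 were higher. The marker counts are not read as an excess. *Fgf4* had genotype means only at dimmer probe sets, higher by 0.46 to 0.58 on the log2 scale. *Nanog*, a transcription factor of the pluripotency network, had an intensity of 3852 in WT and 8267 in *Alkbh1-/-* mESCs (log2 difference 1.10). *Klf4*, a further factor of that network, had an intensity of 4628 in WT and 7380 in *Alkbh1-/-* mESCs (log2 difference 0.67), and a log2 difference of 0.71 at its other probe set. The differences of *Esrrb* at 0.55, *Zfp42* at 0.41 and *Utf1* at -0.49 on the log2 scale were under 1.5-fold. *Pou5f1* and *Sox2* had no genotype means. The part of these marker differences in that of *Tet2* was not tested.

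The other genes of the pathway were then described from fixed lists. Genotype means were found for 12.9% of all probe sets, and a gene without them is not shown to be alike in both genotypes. Of 12 further genes of base excision repair, which include other glycosylases, 11 had a probe set and 0 had genotype means. Their brightest probe sets ran from 5.92 for *Neil3*, a glycosylase, to 11.82 for *Apex1*, the endonuclease that cuts abasic sites. The 3 APOBEC genes examined, from the family of cytosine deaminases, each had a probe set, and *Apobec2* alone had genotype means, with an intensity of 40.1 in WT and 120 in *Alkbh1-/-* mESCs (log2 difference 1.58). The mean log2 value of this *Apobec2* probe set, 6.12, was below the median of all probe sets, 6.31, and its dimmer probe set had no genotype means.

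The partners and cofactor enzymes of the TET proteins had genotype means for 5 of 8 genes at the brightest probe set. Over all probe sets, dim ones included, the share was 12.9%. The share over the brightest probe sets of all genes was not computed, so the 5 of 8 is not read as an excess. All 5 were over 1.5-fold apart, 2 higher and 3 lower in *Alkbh1-/-* mESCs, in a list where 63.2% of probe sets are. The log2 differences ran from -1.49 to 1.36, so the group had no common direction. *Idh2*, the mitochondrial isocitrate dehydrogenase that makes 2-oxoglutarate, had an intensity of 524 in WT and 1345 in *Alkbh1-/-* mESCs (log2 difference 1.36), and of 92.3 and 129 at its dimmer probe set (log2 difference 0.49). *Ogt*, the X-linked transferase of N-acetylglucosamine that binds TET proteins, had an intensity of 1602 in WT and 2484 in *Alkbh1-/-* mESCs (log2 difference 0.63), and its other 4 probe sets were higher by 0.74 to 0.95. The first values are of 1460631_at, which carries the symbol *Btbd1* and was assigned to *Ogt* by its gene identifier. The X-linked share of higher probe sets given above applies to *Ogt*, and its part in the difference was not tested.

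*Dppa3*, which protects methylated DNA from TET oxidation in the early embryo, had an intensity of 1882 in WT and 671 in *Alkbh1-/-* mESCs (log2 difference -1.49). *Hmces*, a protein first described as a reader of hydroxymethylcytosine, had an intensity of 2820 in WT and 1726 in *Alkbh1-/-* mESCs (log2 difference -0.71). *Cxxc5*, a CXXC zinc finger protein related to the TET partner *Cxxc4*, had an intensity of 797 in WT and 522 in *Alkbh1-/-* mESCs (log2 difference -0.61). Its dimmer probe set had a log2 difference of -0.56, under 1.5-fold. *Cxxc4*, *Idh1* and *Uhrf2* had no genotype means.

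Among the methyl-CpG binding relatives of *Mbd4*, *Mbd3*, a subunit of the NuRD complex, had genotype means. Its intensity was 836 in WT and 605 in *Alkbh1-/-* mESCs (log2 difference -0.47), under 1.5-fold. Of 8 partners of GADD45 proteins and stress genes induced with them, *Cdkn1a* alone had genotype means. The share over all probe sets was 12.9%, and genes without such means are not shown to be alike in both genotypes. *Cdkn1a*, the p21 inhibitor of cyclin-dependent kinases and a partner of GADD45 proteins, had an intensity of 1441 in WT and 889 in *Alkbh1-/-* mESCs (log2 difference -0.70), and a log2 difference of -0.67 at its other probe set. Both *Cdkn1a* and *Gadd45g* were over 1.5-fold lower in these cultures, as were 35.0% of the autosomal probe sets with genotype means. The part of feeder RNA in the *Cdkn1a* difference was not tested.

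**Figure D4:**
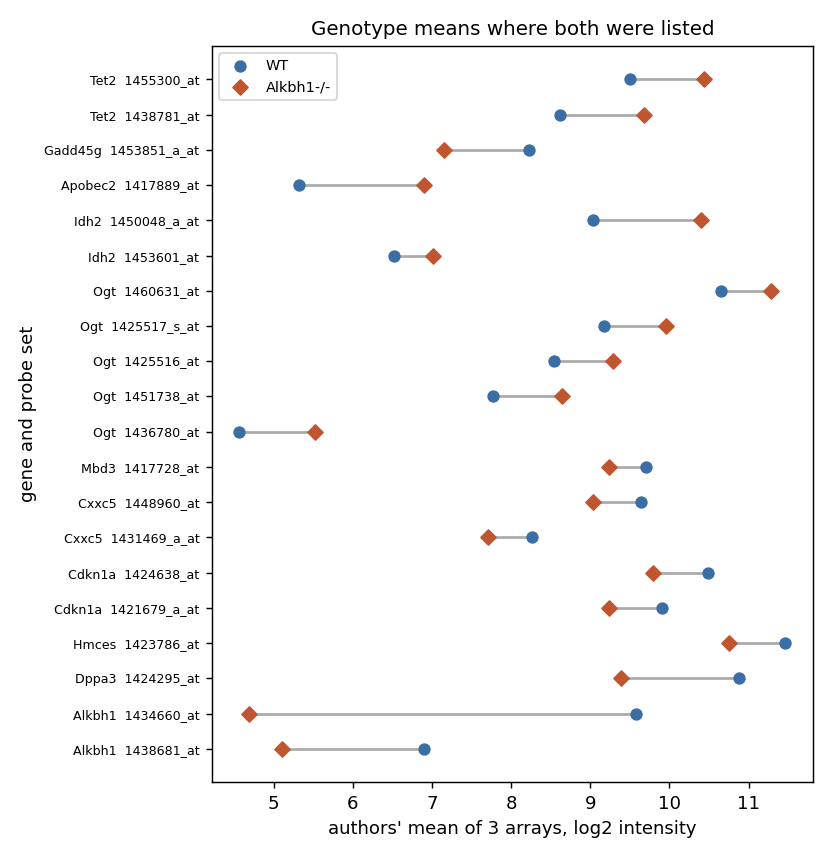
Mean of 3 arrays per genotype as log2 intensity (x axis), blue circles for WT and orange diamonds for *Alkbh1-/-* mESCs, for each probe set with genotype means of *Tet2*, *Gadd45g*, the pathway genes and *Alkbh1* (y axis). The probe sets of *Tet2*, *Apobec2*, *Idh2* and *Ogt* are higher in *Alkbh1-/-* mESCs, and those of *Gadd45g*, *Mbd3*, *Cxxc5*, *Cdkn1a*, *Hmces*, *Dppa3* and *Alkbh1* are lower.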

How the data were processed

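Total RNA of 3 WT and 3 *Alkbh1-/-* mESC samples was hybridized by the authors to Affymetrix whole-genome mouse arrays and normalized together with RMA. The mean log2 value over all arrays is a deposited column of a limma table of 33142 probe sets. The geometric mean intensity of each genotype is a deposited column of a class comparison by a service company, to which 7320 probe sets were admitted by its filter; per the description with the tables, its class C1 is a misprint for the WT class. Both tables also hold the authors' own log ratios, fold changes, statistics and p-values, which were not used. With means alone, limma was not run.

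In the class comparison, the mean of both log2 intensities equalled a mean in the larger table for 4265 of 4326 entries (nearest within 0.0001 log2 units), but 8 entries of 4261 did so under their own identifier. Genotype means were therefore joined by mean level. The matching step was tested on simulated data, which does not bear on whose identifiers are right. Each *Tet2*, *Gadd45g* and *Alkbh1* entry had 1 probe set within 0.000001. Probe sets were named by gene identifier, symbol, unique alias or accession through RefSeq (GRCm38.p6), and the brightest stands for a gene. Differences are the log2 ratio of the means, described at a linear fold of 1.5. The members and lists were chosen with earlier results of these data known. Named are all members, *Alkbh1*, and from each pathway list the genes over 1.5-fold apart or else its brightest gene; *Neil3*, *Cxxc4*, *Idh1*, *Uhrf2* and the markers were added. Some listed genes are not reported here. Alternatives were the probe set, the join, the fold and the centring. Python 3.11.15, pandas 2.3.3, NumPy 2.4.6 and matplotlib 3.10.9 were used. The number of arrays limits the precision.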

Additional observations from a re-analysis of the deposited data

How the results depend on the processing

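The join of the genotype means decided the *Tet2* direction. Joined by probe set identifier, *Tet2* at 1455300_at had a log2 difference of -0.63, a reversal, while its other probe set was at 1.45, and *Gadd45g* was at -0.70. In the same join, the probe sets of *Alkbh1* were at -1.22 and 0.60, opposite to each other. A tolerance of 0.00001, or of 0.000001 as chosen after the data were seen, left both members' differences as they were. The mean over its probe sets put *Tet2* at 1.00. Of the members, 2 were past 1.5-fold and 1 past 2-fold; 1.2-fold could not change the count, as every listed probe set passes it. Centring on the list's median (0.42) left 1, with *Tet2* at 0.51 and *Gadd45g* at -1.49, and moved the higher share of probe sets over 1.5-fold from 52.0% to 18.1%. The list has a gap around 0 and this median lies near the edge of it, so all 2067 lower probe sets passed by construction, and nothing on *Tet2* is drawn from it. Over the autosomal probe sets alone, the median was -0.47, on the other side of the gap. Taking the mean of a gene's probe sets lowered the level of *Tet1* to 8.93, *Tet2* to 9.56, *Tdg* to 9.87, *Gadd45b* to 7.46, *Gadd45g* to 6.56 and *Mbd4* to 6.84, and the median gave 10.11 for *Tet1*. Ranked among 15363 genes, *Mbd4* and *Gadd45g* were above 54.9% and 55.0%, and *Gadd45b* was above 72.1%. Leaving out each array was not run for lack of single-array values. No paired analysis was possible because the tables hold means of each genotype only.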
